A study of Mus musculus with 9 samples.

Results

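RNA-Seq of leukemic cell clones at their endpoint was compared with RNA-Seq of clones sampled before leukemia developed. All 9 libraries of the series entered the comparison, 6 leukemic and 3 pre-malignant, and the description centers on changes present in both kinds of leukemic clone. The cells were H9M cells: lineage-negative bone marrow of C57BL/6-Ly5.1 mice that carried a retroviral Meis1-2A-Hoxa9 vector with puromycin resistance and a fluorescent genetic barcode vector that encoded EGFRt and gave each clone a color code. A mix of such color-coded clones was transplanted, together with helper marrow, into lethally irradiated C57Bl6/J mice, and host or helper cells in the libraries were not measured. Thawed splenocytes were sorted by color code from the CD45.1+ EGFRt bright cKit+ CD11b dim/neg gate. The 3 pre-malignant libraries came from mouse #15, which was sampled early and gave 1 library for each of 3 clones. The 3 de novo expanded libraries held the same clones at the leukemic endpoint, 38BC-D (mouse #13), 43BC-D (mouse #14) and 33BC-D (mouse #17). The 3 stably expanded libraries held clone 34BC-D from these 3 endpoint mice. The stably expanded group is therefore 1 clone, the pre-malignant group is 1 mouse, and time point, mouse and (for clone 34BC-D) clone cannot be told apart as sources of a difference. Within a group no label ties a library to its clone or mouse. Libraries are named PM1 to PM3, DN1 to DN3 and ST1 to ST3, and the numbers only name them.

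Meis1 and Hoxa9 are homeobox transcription factors that are highly expressed in hematopoietic stem and progenitor cells, shut down as myeloid cells mature, and together transform bone marrow progenitors. Immature myeloid cells that progress towards leukemia usually keep cycling, and their response to cytokines runs through JAK-STAT, MAPK and NF-kB signaling, whose immediate early, feedback and inflammatory target genes report how strongly these routes are engaged. Maturation towards granulocytes turns on granule protein genes, while maturation towards monocytes turns on Csf1r and Klf4.

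The sort and vector genes did not pass the limits. Normalized counts (reads per gene divided by a size factor for each library) of Ptprc, which encodes CD45, lay between 4309 and 4962 in the pre-malignant and between 4238 and 5216 in the leukemic libraries. Kit counts were 3979, 3746 and 3355 in PM1 to PM3, and the lowest, median and highest leukemic counts were 1937, 3069 and 3779. Meis1 had a mean of 9288 ± 2886 (SD, n = 3) in pre-malignant and 11260 ± 2416 (n = 6) in leukemic libraries, and Hoxa9 5764 ± 1856 and 6730 ± 1578. The log2 differences of these 4 genes were 0.02, -0.34, 0.29 and 0.24, none with an adjusted p-value under 0.05 by limma, and that of Ptprc was -0.027 with quantile normalization. Itgam, the gene for CD11b, showed a log2 difference of 0.21 (adjusted p = 0.665, limma). Reads of Meis1 and Hoxa9 from the vector and from the native genes were not told apart.

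Library depth ran from 10379739 to 15551196 reads on genes, and a count of 0 allows up to 3 reads. De novo expanded library DN3 stood apart from its group: its log2 values correlated with DN1 and DN2 at a mean r of 0.924 and with the stably expanded libraries at 0.959. DN1 and DN2 correlated with the pre-malignant libraries at a mean r of 0.954 and 0.963, and with the stably expanded ones at 0.94 and 0.951. Results are therefore also given without DN3, which leaves DN1 and DN2, both closer to the pre-malignant than to the stably expanded libraries, as the de novo group. Between 27896 and 30548 genes had a read in the pre-malignant libraries and between 21618 and 27989 in the leukemic ones. Reads on olfactory and vomeronasal receptor genes, which blood cells are not known to use, lay between 80.8 and 179 RPM (reads per 1000000 reads on genes) in the pre-malignant and between 21.5 and 118 RPM in the leukemic libraries. Each of these measures was below all pre-malignant libraries in 5 of 6 leukemic libraries (two-sided exact permutation test, p = 0.0476 each, adjusted p = 0.143 over 12 library measures). The smallest p-value this test allows is 0.0238, with every library taken as independent. Several libraries came from the same mouse, so these p-values do not measure the spread between mice.

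A mean of 10 normalized counts or more was reached by 13960 genes, of which 4 were called in the contrast of all leukemic with pre-malignant libraries, at an adjusted p-value under 0.05 in limma and a change of at least 2-fold. Of these, 3 rose (0.0215% of genes called higher), among them Cd81 and Mrap, and Igkv12-41 fell (0.00716% called lower). Another 10 genes passed the adjusted p-value at less than 2-fold. In all, 6 genes were higher (0.043%) and 8 lower (0.0573%) at the adjusted p-value alone. At an unadjusted p-value under 0.05, 1250 genes (8.95%) were higher and 1296 (9.28%) lower. The call count rested on single libraries: it was 106 without DN3, 50 higher and 56 lower, and 0 without PM3. On the recovered reads, edgeR's quasi-likelihood test called 6 genes and DESeq2 186, each including the 4. Replicates here are different clones of 1 mouse (pre-malignant), different clones in different mice (de novo expanded) or 1 clone in different mice (stably expanded). Each endpoint mouse gave a de novo and a stably expanded library, and the fit treated all libraries as independent. The p-values measure the spread between these libraries and not between mice.

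Cd81, a tetraspanin that organizes receptors and integrins in the plasma membrane (chr7:143052739-143067934), had counts of 598, 535 and 508 in the pre-malignant libraries. Its leukemic counts ran from 997 over a median of 1234 to 1353. The groups did not overlap, and DN1 was the leukemic library closest to them. The rise of Cd81 was 2.17-fold (log2 fold change 1.12, SE 0.10). Its adjusted p-value was the smallest of all genes, 0.00541 in limma, shared with Igkv12-41, whose leukemic counts were all 0. Mrap, which encodes the melanocortin receptor accessory protein (chr16:90738207-90749785), rose from 7.35, 8.37 and 8.31 counts to between 28.1 and 68.0 with a median of 53.3, or 5.43-fold (log2 fold change 2.44, SE 0.30, adjusted p = 0.0269, limma). Its counts are low, and the lowest leukemic library, ST1, still exceeded the highest pre-malignant one.

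Igkv12-41, a variable segment of the immunoglobulin kappa locus (chr6:69858420-69858884), had 113, 35 and 95 reads in PM1 to PM3 and 0 reads in each of the 6 leukemic libraries. Against 3 reads per library the fall was at least 26.2-fold (adjusted p = 0.00541, limma). The 6 leukemic values of 0 have no spread, so this gene's own spread in the fit came only from the 3 pre-malignant libraries. The adjusted p-value therefore does not allow for counting error at 0. All 3 libraries with reads came from the same mouse, so the level of this segment in other pre-malignant mice was not measured. This segment is used by B cells, and B cell markers were lower in the leukemic libraries as well: summed over 14 markers, they made up between 233 and 282 RPM in the pre-malignant and between 79.6 and 231 in the leukemic libraries. In such bulk samples fewer cells of a type and less RNA per cell cannot be told apart.

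**Figure D1:**
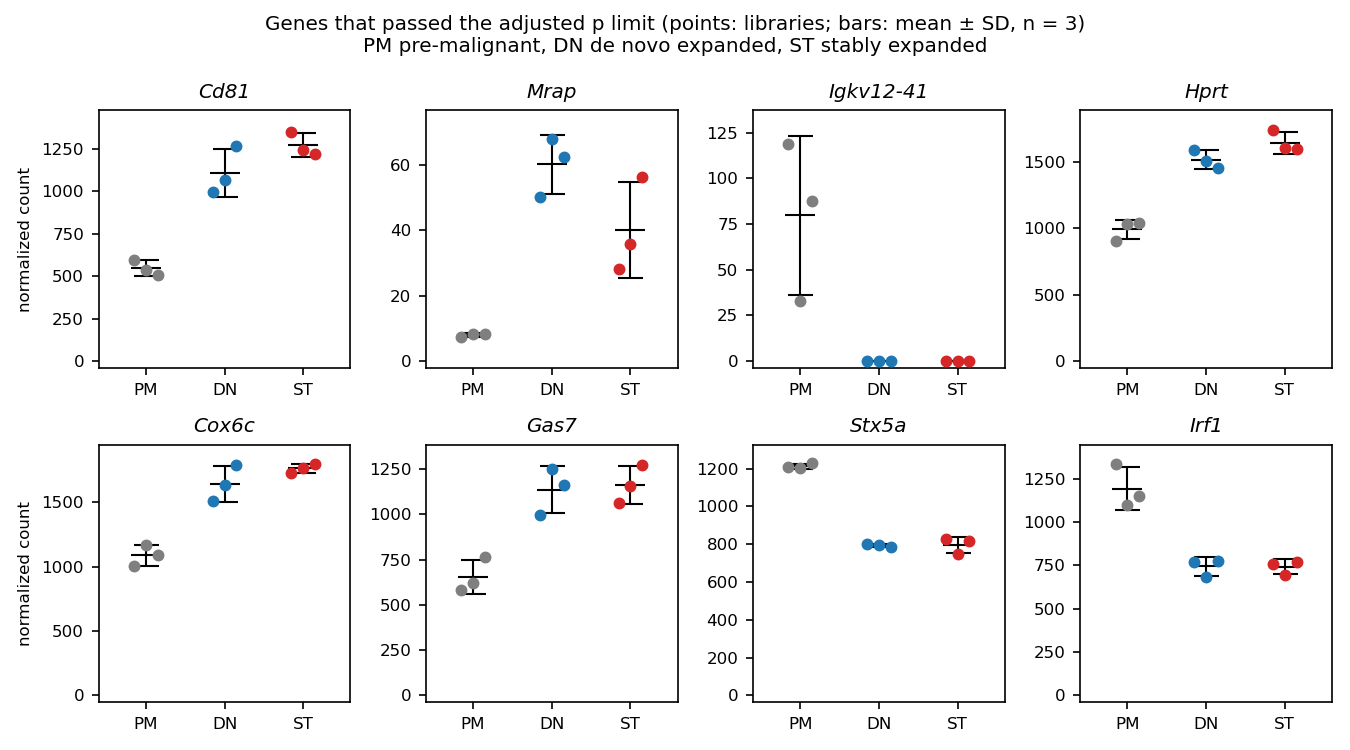
Normalized counts of 8 genes that passed the adjusted p limit, in each library (points) with the mean and SD of each group (n = 3, with 0 on each y axis). Mrap, Cd81, Hprt, Cox6c and Gas7 were higher in all 6 leukemic libraries, Stx5a and Irf1 lower, and Igkv12-41 had no leukemic read.

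The genes that passed the adjusted p-value at a smaller fold were well expressed and had little spread. Hprt, the purine salvage enzyme, rose 1.60-fold from 904, 1029 and 1037 to between 1450 and 1738 counts, with a median of 1591 (adjusted p = 0.0269, limma). Cox6c, a subunit of cytochrome c oxidase, rose 1.56-fold from 1006.5, 1172 and 1088 to between 1510 and 1798 (median 1747, adjusted p = 0.0337). Gas7, a regulator of the actin cytoskeleton, rose 1.76-fold from 581, 619 and 763 to between 997 and 1272 (median 1160, adjusted p = 0.0488). In each of these 3 genes the highest pre-malignant library lay well below the lowest leukemic one.

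Among the genes that fell, Stx5a, a SNARE protein of transport between endoplasmic reticulum and Golgi, had the least spread, with 1208, 1204 and 1228 counts in the pre-malignant libraries and between 749 and 825 (median 799) in the leukemic ones (1.53-fold lower, adjusted p = 0.0269, limma). Irf1, the transcription factor that induces many interferon response and antigen presentation genes, fell 1.60-fold from 1333, 1098 and 1151 to between 683 and 777 counts (median 766, adjusted p = 0.0488). H2-Q4, a class I histocompatibility gene, fell 1.76-fold from 1665, 1629 and 1544 to between 763 and 1118 (median 939, adjusted p = 0.0488). H2-Q genes are close copies of each other, so the division of reads between them is uncertain. Dennd1a, an activator of Rab GTPases in endocytosis, fell 1.72-fold, Hexim1, an inhibitor of the elongation factor P-TEFb, 1.56-fold, and Pik3cd, the delta catalytic subunit of phosphoinositide 3-kinase, 1.44-fold, all with an adjusted p of 0.0488. Their pre-malignant and leukemic counts did not overlap. The lowest pre-malignant and the highest leukemic counts were 1988 and 1476 for Dennd1a, 1521 and 1109 for Hexim1, and 4466 and 3469 for Pik3cd. The remaining gene of the 10 was a predicted gene.

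Changes shared by both leukemic groups were defined by 3 conditions and carry no test of their own: all 6 leukemic libraries beyond all 3 pre-malignant ones, and the mean of each leukemic group at least 2-fold away in the same direction. This held for 183 genes, 44 higher (0.315% of 13960) and 139 lower (0.996%), and included all 4 called genes. Without the 2-fold condition 729 genes (5.22%) were higher and 780 (5.59%) lower in all 6 leukemic libraries. Without DN3, 62 of the 183 genes were called, against 0 without PM3 and at most 6 without any other library. Adjusted p-values given below without DN3 therefore rest on this omission. With quantile normalization the shared genes numbered 65 higher and 89 lower, a more even split.

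The shared genes that were higher are given in the order of their roles, cell surface proteins first. Clstn3, a calsyntenin of the cadherin superfamily, had 116, 104 and 61.9 counts in the pre-malignant libraries and between 214 and 426 (median 339) in the leukemic ones, a log2 difference of 1.76 (SE 0.27, adjusted p = 0.0522, limma). Cdh17, a cadherin, had 49.4, 24.2 and 16.6 counts against 74.2 to 151 (median 107), a difference of 1.93 (adjusted p = 0.0718). Tspan2, a tetraspanin like Cd81, had 182, 167 and 152 counts against 237 to 676 (median 453), a difference of 1.42 (adjusted p = 0.0791). The closest pair of libraries in Tspan2 was PM1 and DN1, and DN3 held the highest value.

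Chst15, which sulfates chondroitin chains, had 148, 134 and 102.5 counts in pre-malignant and 229 to 540 (median 381) in leukemic libraries (log2 difference 1.54, adjusted p = 0.059, limma). Mgst3, a microsomal glutathione transferase, had 24.2, 38.2 and 31.4 counts against 58.8 to 133 (median 90.8; 1.53, adjusted p = 0.0718). Trem3, a myeloid receptor of the Trem cluster, differed by 1.88, Trp53i11 by 1.10 and Crip1, a LIM domain protein, by 1.5, with adjusted p-values of 0.0791, 0.0791 and 0.0872. Auts2, a partner of non-canonical polycomb complexes, had 6.30, 4.65 and 3.69 counts against 13.5 to 51.4 (median 20.9; 2.18, adjusted p = 0.0872). All 9 of these genes that missed the adjusted p-value passed it without DN3 with adjusted p-values between 0.00559 and 0.0304. No other omission of a library raised the number of called shared genes in this way.

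The shared genes that were lower with the smallest p-values were of mixed kinds. Cacna1e, a subunit of a voltage-gated calcium channel, had 45.2, 48.4 and 40.6 counts in the pre-malignant libraries and between 4.03 and 11.8 (median 5.92) in the leukemic ones (log2 difference -2.62, SE 0.42, adjusted p = 0.059, limma). Slc25a27, a mitochondrial carrier of the uncoupling protein family, had 90.4, 77.2 and 68.3 counts against 9.05 to 48.8 (median 23.2; -1.83, adjusted p = 0.059). Its leukemic counts were higher in the de novo (37.2 ± 10.2) than in the stably expanded clones (12.6 ± 3.76), a difference that was not called (adjusted p = 0.666). Nrg1, a ligand of ERBB receptors, had 297, 585 and 700 counts against 127 to 241 (median 191; -1.42, adjusted p = 0.0791).

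Pkd2, a cation channel of the polycystin family, had 51.5, 56.8 and 45.3 counts in pre-malignant libraries, 21.8 ± 1.02 (n = 3) in de novo and 2.85 ± 3.47 (n = 3) in stably expanded clones (log2 difference over both -2.70, adjusted p = 0.0791, limma). Rnu2-10, a U2 spliceosomal RNA, differed by -1.36, H3f3aos, the antisense partner of H3f3a, by -1.36 and Adgb, androglobin, by -1.58 (adjusted p = 0.0695, 0.0791 and 0.0791). U2 RNA has many near-identical copies and H3f3aos overlaps a coding gene, so their read counts are uncertain. The other 4 lower genes in the heat map, Zfp36, Ppp1r15a, Gbp2 and Mx1, belong to gene groups described with their lists.

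**Figure D2:**
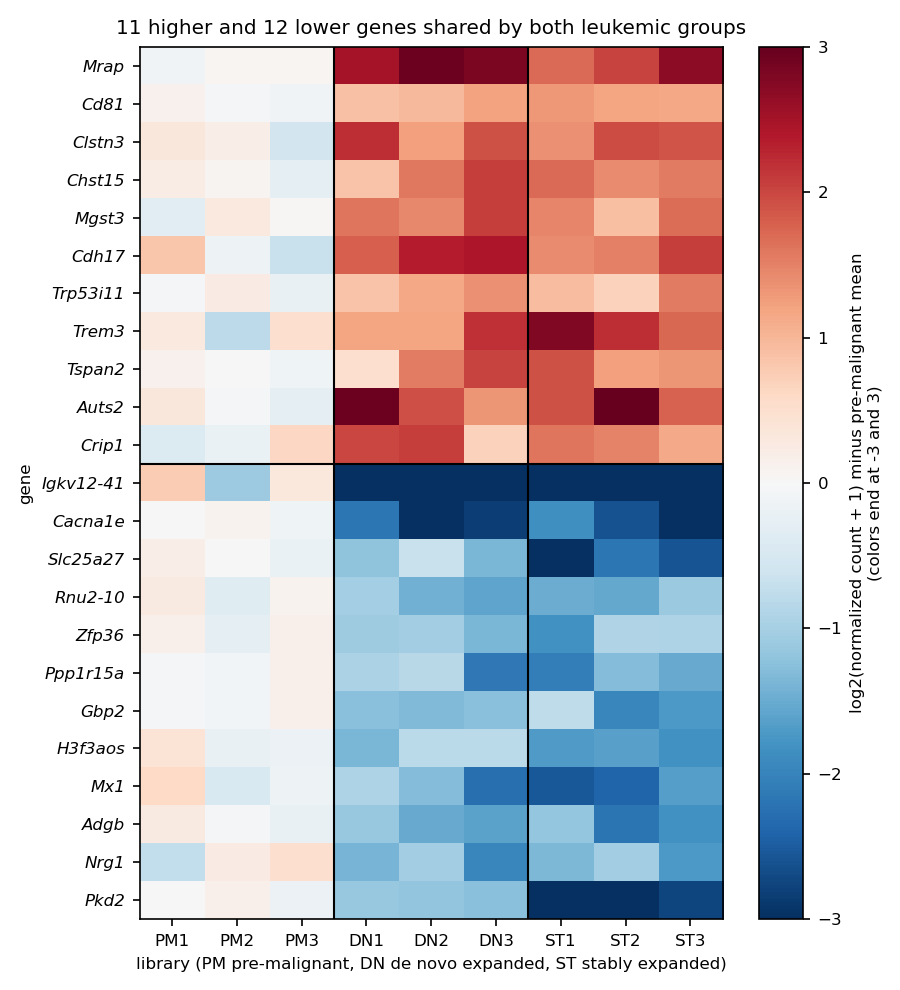
Heat map of 23 shared genes (rows) in 9 libraries (columns), as log2(normalized count + 1) minus the mean of the pre-malignant libraries, with colors ending at -3 and 3. The upper 11 genes were higher and the lower 12 lower in all 6 leukemic libraries, and Igkv12-41, with no leukemic read, is at the end of the color scale in all of them.

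Immediate early genes are transcribed soon after a stimulus without new protein synthesis, and include the AP-1 subunits. Of 27 tested members, 26 were lower in leukemic clones, with a median log2 difference of -0.80 against 0 for all genes. None was called, 13 were lower in all 6 leukemic libraries (background 5.59%), 5 of them shared, and 21 had an unadjusted p-value under 0.05 (background 9.28%). The median over the members, relative to the pre-malignant mean, was below 0 in each leukemic library, from -0.50 in DN1 to -1.63 in ST1. Fos, an AP-1 subunit, had 7289, 6552 and 8821 counts in PM1 to PM3, and the lowest, median and highest leukemic counts were 1198, 3410 and 4250. All leukemic libraries were below the lowest pre-malignant one, ST1 and DN3 by the most, at a log2 difference of -1.43 (SE 0.38, adjusted p = 0.113, limma).

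Zfp36, which encodes the mRNA decay factor tristetraprolin, had 3033, 2201 and 3006 counts in the pre-malignant and between 773 and 1448 (median 1302) in the leukemic libraries, a log2 difference of -1.19 (SE 0.20, adjusted p = 0.0711, limma). Ppp1r15a, the phosphatase subunit GADD34 that reverses eIF2alpha phosphorylation, had 1345, 1321 and 1548 counts against 314 to 787 (median 530), a difference of -1.47 (adjusted p = 0.0791). Atf3, a transcription factor of the ATF family induced by stress, had 505, 252 and 479 counts against 23.5 to 202 (median 128), a difference of -2.06 (adjusted p = 0.136). In all 3 genes the groups did not overlap. Klf4, a zinc finger factor of monocyte maturation, had 484, 647 and 743 counts against 62.2 to 438 (median 199), a difference of -1.83 (adjusted p = 0.143). Without DN3, Zfp36, Ppp1r15a and Klf4 passed with adjusted p-values of 0.0156, 0.0042 and 0.0497, while Fos (0.0592) and Atf3 (0.0781) did not.

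Promoter windows of 6 genes that moved in all leukemic libraries are printed to show their motifs, from RefSeq (GRCm38.p6), each from 250 bases before to 50 bases after an annotated start and 5′ to 3′ on the strand of the gene. Clstn3 and Irf1 had 2 windows each, of which the one with the most motif matches is printed. The other Clstn3 window held an NF-kB site and no TGACGTCA or CCAAT box. Capitals mark the letters that matched a searched motif on either strand. Cd81 holds a TATAAA, Clstn3 a cyclic AMP response element (TGACGTCA) and 2 CCAAT boxes, Irf1 a CCAAT box and an NF-kB site, Zfp36 a CArG box (the site of serum response factor), Fos an NF-kB site and a TATAAA, and Ppp1r15a an NF-kB site, a TGACGTCA and a TATAAA. The TGACGTCA and the NF-kB sites were read in windows of which, over all 32851 in the RefSeq table, 1.79% and 9.38% held one.
Cd81 (chr7:143052500-143052799, plus strand): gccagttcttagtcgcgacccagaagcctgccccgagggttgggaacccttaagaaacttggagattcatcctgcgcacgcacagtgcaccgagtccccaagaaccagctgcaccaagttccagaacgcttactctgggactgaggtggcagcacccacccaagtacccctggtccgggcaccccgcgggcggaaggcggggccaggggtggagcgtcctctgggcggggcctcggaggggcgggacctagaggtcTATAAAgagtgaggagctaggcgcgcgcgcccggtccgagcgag
Clstn3 (chr6:124464735-124465034, minus strand): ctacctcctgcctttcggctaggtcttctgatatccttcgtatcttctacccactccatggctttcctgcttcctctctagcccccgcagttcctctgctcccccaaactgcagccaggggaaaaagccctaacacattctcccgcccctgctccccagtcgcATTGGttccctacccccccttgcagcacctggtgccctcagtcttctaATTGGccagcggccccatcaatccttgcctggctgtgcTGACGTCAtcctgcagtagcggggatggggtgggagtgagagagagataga
Irf1 (chr11:53769764-53770063, plus strand): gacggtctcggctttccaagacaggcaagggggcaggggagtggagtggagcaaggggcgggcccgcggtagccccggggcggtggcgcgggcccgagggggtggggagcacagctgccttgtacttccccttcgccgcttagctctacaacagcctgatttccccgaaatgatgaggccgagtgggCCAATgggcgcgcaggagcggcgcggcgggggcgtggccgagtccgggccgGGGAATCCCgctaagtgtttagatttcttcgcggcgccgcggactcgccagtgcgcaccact
Zfp36 (chr7:28379179-28379478, minus strand): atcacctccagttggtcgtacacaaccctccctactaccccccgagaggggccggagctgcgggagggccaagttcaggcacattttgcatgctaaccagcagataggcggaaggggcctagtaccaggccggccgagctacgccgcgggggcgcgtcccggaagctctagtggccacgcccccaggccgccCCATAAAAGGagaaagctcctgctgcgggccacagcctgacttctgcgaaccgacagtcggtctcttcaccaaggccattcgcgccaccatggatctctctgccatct
Fos (chr12:85473640-85473939, plus strand): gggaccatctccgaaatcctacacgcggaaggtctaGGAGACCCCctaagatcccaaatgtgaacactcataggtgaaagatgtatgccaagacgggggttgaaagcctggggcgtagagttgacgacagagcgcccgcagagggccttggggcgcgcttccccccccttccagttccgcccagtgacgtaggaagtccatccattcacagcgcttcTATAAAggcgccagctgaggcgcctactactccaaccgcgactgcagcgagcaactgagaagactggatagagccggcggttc
Ppp1r15a (chr7:45526219-45526518, minus strand): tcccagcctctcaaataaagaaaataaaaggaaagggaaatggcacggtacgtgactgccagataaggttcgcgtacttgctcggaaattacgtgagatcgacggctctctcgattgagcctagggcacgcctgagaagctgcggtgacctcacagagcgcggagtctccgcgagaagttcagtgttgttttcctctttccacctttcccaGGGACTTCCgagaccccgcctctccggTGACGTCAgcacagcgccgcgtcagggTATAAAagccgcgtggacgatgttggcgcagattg

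Motif shares were read as a description over whole groups. RefSeq windows were found for 72 of the 139 shared lower genes (83 windows), 25 of the 44 shared higher genes (34 windows) and 21 of the 27 immediate early genes (26 windows). TGACGTCA was in 3.61% of the lower, 8.82% of the higher and 15.4% of the immediate early windows, against 1.79% of all windows and 3.13% of the windows of tested genes. The CArG box was in 2.41%, 11.8% and 3.85%, against 1.63% of all windows and 1.2% in tested genes. NF-kB sites were in 13.3%, 14.7% and 30.8%, against 9.38% and 11.8%. TGACTCA, the AP-1 site, was in 4.82%, 0% and 3.85%, against 5.2% and 3.45%. CACGTG was in 7.23%, 2.94% and 19.2%, against 7.15% and 10.2%. CCAAT was in 34.9%, 44.1% and 30.8%, against 37.4% and 38.2%. TATAAA was in 9.64%, 23.5% and 15.4%, against 13.6% and 6.9%. The E2F site (TTTGGCGC or TTTCGCGC) and the NRF1 site GCGCATGCG were each in 1.2% of the lower and 0% of the higher windows, in 3.85% and 0% of the immediate early windows, and in 0.813% and 1.75% of all windows (1.6% and 3.82% in tested genes). Each share of the higher genes rests on at most 15 windows.

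No gene of the NF-kB, JAK-STAT or MAPK lists was called. Of 22 tested NF-kB subunits, inhibitors and targets, 19 were lower (median log2 difference -0.55), 6 of them in all leukemic libraries (background 5.59%). Cxcl2, a neutrophil-attracting chemokine, had 30.5, 55.8 and 67.4 counts in pre-malignant and between 2.69 and 16.0 (median 6.39) in leukemic libraries, a difference of -2.72 (adjusted p = 0.0791, limma). Of 12 JAK-STAT feedback genes and PIM kinases, 11 were lower (median -0.46). Osm, the cytokine oncostatin M and a target of STAT5, had 345, 426 and 411 counts against 79.4 to 265 (median 162; -1.32, adjusted p = 0.123), and Socs1, the feedback inhibitor of JAK kinases, 118, 90.3 and 85.0 against 29.8 to 63.8 (median 48.1; -1.03, adjusted p = 0.121). No leukemic library reached the pre-malignant range of either gene. Without DN3, Cxcl2 (adjusted p = 0.0296) and Osm (0.0259) passed the adjusted p-value.

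Of 11 tested MAPK feedback and output genes, 8 were lower, but the list had no stable direction. Its median was -0.56 by limma, 0.069 by edgeR and 0.079 by DESeq2, and the median over members was above 0 in DN1, DN2 and ST2. Summed reads of the list were 164 to 183 RPM in the pre-malignant libraries, 275 and 294 in DN1 and DN2, and as low as 79.3 in ST1. Phlda1 had 74.6, 52.1 and 57.3 counts in pre-malignant and between 9.12 and 31.6 (median 16.4) in leukemic libraries (log2 difference -1.79, adjusted p = 0.0791, limma). Spry1, an inhibitor of receptor tyrosine kinase signaling, had 34.7, 13.0 and 12 counts against 0 to 10.3 (median 6.15; -2.02, adjusted p = 0.25). Of 15 p53 targets, 8 were lower and 7 higher, and Plk2, a stress-induced polo-like kinase, was shared at -2.20 (adjusted p = 0.132). Among 14 integrated stress response genes 10 were higher (median 0.28), with Shmt2 at 0.28 and Psat1 at 0.35, enzymes of serine and glycine synthesis. Of 13 heat shock chaperones 6 were higher and 7 lower, with a median of -0.18 by limma and 0.154 by DESeq2. Hsp90aa1 had 4361, 5175 and 5363 counts against 6270 to 10928 (median 7316; 0.66, adjusted p = 0.107), while the constitutive Hsp90ab1 and Hspa8 differed by 0.17 and 0.33.

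**Figure D3:**
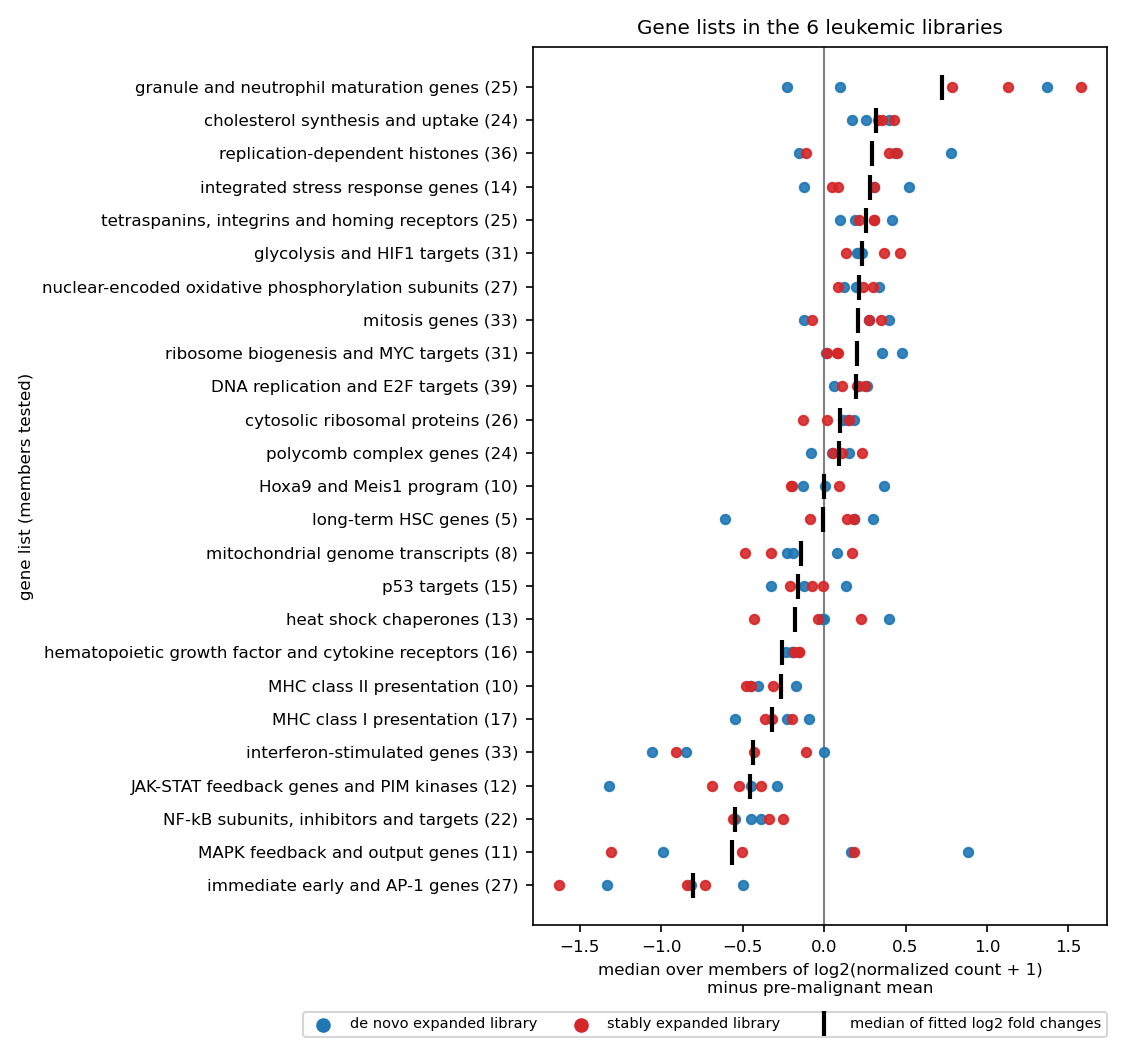
Median over the tested members of each gene list of log2(normalized count + 1) minus the pre-malignant mean, for each leukemic library (points) and for the fitted contrast (black ticks). Immediate early and NF-kB genes lie below 0 in all 6 leukemic libraries, cholesterol, tetraspanin, glycolysis and oxidative phosphorylation genes above 0, and MAPK and granule genes spread on both sides of it.

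Interferon-stimulated genes are induced through STAT and IRF factors, and 30 of 33 tested members were lower, with a median log2 difference of -0.44. Of these 7 were lower in all 6 leukemic libraries (background 5.59%) and 4 were shared (background 0.996%), while the median over the members ranged across leukemic libraries from near 0 in DN3 to -1.06 in DN1. Mx1, an antiviral GTPase, had 248, 119 and 148 counts against 27.2 to 85.5 (median 42.2; -1.85, SE 0.36, adjusted p = 0.0791, limma). Its relative Mx2 had 99.8, 52.1 and 54.5 counts against 11.8 to 43.0 (median 24.5; -1.42, adjusted p = 0.131). Gbp2, a guanylate-binding protein, had 160, 156 and 184 counts against 42.2 to 97.7 (median 67.9; -1.37, adjusted p = 0.0791), and Rsad2, the antiviral enzyme viperin, 106, 64.2 and 71.1 against 9.12 to 34.0 (median 29.0; -1.73, adjusted p = 0.0874). The pre-malignant libraries exceeded every leukemic one in all 4 genes, and PM1 was the highest for Mx1, Mx2 and Rsad2.

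Class I presentation genes were lower in 13 of 17 tested members (median -0.32), with H2-Q4 past the adjusted p-value. H2-K1 had 10495, 9720 and 11473 counts against 6928 to 9356 (median 8363; -0.35, adjusted p = 0.157), without overlap, whereas H2-D1 (-0.32) and B2m (-0.13), the light chain of class I, overlapped. All 10 class II presentation genes were lower (median -0.27), of which Cd74, the invariant chain, was shared, with 247, 175 and 259 counts against 43.6 to 160 (median 120; -1.23, adjusted p = 0.173). Class II genes are also expressed by B cells, whose markers were lower in the leukemic libraries. The cells were sorted on CD45.1 and EGFRt, and the purity of the sort was not measured here. The part of B cells in these values was not tested.

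Granule and neutrophil maturation genes had a median log2 difference of 0.73, with 20 of 25 tested members higher and 11 at an unadjusted p-value under 0.05 (background 8.95%), but only 2 higher in all leukemic libraries (background 5.22%). The group medians were 0.20 in de novo and 1.26 in stably expanded clones, but the de novo libraries differed among themselves, with medians over members of -0.23 in DN1, 0.10 in DN2 and 1.37 in DN3. Summed reads of the list were 8884 to 10341 RPM in the pre-malignant libraries, lower in DN1 (3737) and DN2 (5129), and higher in DN3 (21963) and the stably expanded libraries (12973 to 19108). Ltf, lactoferrin of the specific granules, had 14.7, 28.8 and 5.54 counts in the pre-malignant libraries, 104, 34.0 and 90.2 in DN1 to DN3, and 1364, 482 and 63.1 in ST1 to ST3. Chil3, a chitinase-like protein of immature neutrophils and macrophages, had 46.2, 42.8 and 50.8 counts, then 92.3, 350 and 207, and 1425, 1271 and 106. Every leukemic library was above the pre-malignant ones, but they spread more than 10-fold among themselves, and the log2 differences of 3.42 (SE 0.86) and 2.80 (SE 0.75) had adjusted p-values of 0.107 and 0.115 (limma). Neither differed between the leukemic groups beyond the spread (adjusted p = 0.666 and 0.707).

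Csf1r, the receptor of macrophage colony-stimulating factor, was the shared member of the cytokine receptor list. Its counts were 1351, 1704 and 2187 in PM1 to PM3, 733, 1136 and 172 in DN1 to DN3, and 404, 763 and 459 in ST1 to ST3. All leukemic libraries lay below the pre-malignant range, DN2 the closest and DN3 the farthest, at a log2 difference of -1.71 (SE 0.50, adjusted p = 0.132, limma, and 0.0157 without DN3). Of 16 tested growth factor and cytokine receptors, 11 were lower (median -0.26), 4 of them without overlap (background 5.59%). Cx3cr1, the fractalkine receptor of monocytes, had 99.8, 120 and 220 against 7.22 to 87.8 (median 51.8; -1.72, adjusted p = 0.211). Of 8 tested macrophage and monocyte markers 7 were lower, but their summed level of 883 to 1240 RPM in the pre-malignant libraries lay within the 702 to 1542 of the leukemic ones.

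Cholesterol synthesis and uptake genes were higher in 20 of 24 tested members (median log2 difference 0.32), 4 of them in all leukemic libraries (background 5.22%). The median over members was above 0 in each leukemic library, between 0.17 and 0.43. Tetraspanins, integrins and homing receptors were higher in 20 of 25 members (median 0.26), 6 without overlap (background 5.22%), among them Cd81, Tspan2 and Cdh17. Nuclear-encoded oxidative phosphorylation subunits were higher in 26 of 27 members (median 0.22). Sdha, a subunit of succinate dehydrogenase, had 2486, 2626 and 2904 counts against 2986 to 3399 (median 3279; 0.27, adjusted p = 0.126, limma), without overlap, and the ATP synthase subunits Atp5b (0.20) and Atp5c1 (0.16) overlapped. Transcripts of the mitochondrial genome were lower in 7 of 8 members (median -0.14), with mt-Cytb at -0.36, mt-Nd5 at -0.20 and mt-Co1 at -0.17.

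Glycolysis genes and HIF1 targets were higher in 26 of 31 members (median 0.23). Pkm, pyruvate kinase, had 7470, 7877 and 8559 counts in pre-malignant and 9225 to 12025 (median 10412) in leukemic libraries (log2 difference 0.40, SE 0.09, adjusted p = 0.0872, limma). Gpi1 (0.47) and Aldoa (0.22) overlapped between the groups. DNA replication genes and E2F targets were higher in 33 of 39 members (median 0.19), 10 in all leukemic libraries (background 5.22%). Mcm3, a subunit of the replicative helicase, had 5467, 5407 and 6191 counts against 6512 to 7607 (median 6786; 0.28, adjusted p = 0.125), and its partners Mcm2 and Mcm6 differed by 0.21 and 0.24. Mitosis genes were higher in 30 of 33 members (median 0.21) but none without overlap, with Mki67 at 0.18 and Top2a at 0.21.

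Replication-dependent histone genes were higher in 33 of 36 members (median log2 difference 0.30), and Hist1h4m was shared at 1.68 (adjusted p = 0.137, limma) with 3.15, 7.44 and 10.2 counts against 13.1 to 61.5 (median 19.8). Histone genes are near-identical copies, so reads can be divided between them. Ribosome biogenesis and MYC target genes were higher in 26 of 31 members (median 0.20), with a median of 0.29 in de novo and 0.07 in stably expanded clones. Ncl, nucleolin, had 15812, 17530 and 17719 counts against 17972 to 25286 (median 21770; 0.33, adjusted p = 0.199), while Npm1 (0.21) and Mybbp1a (0.24) overlapped. Cytosolic ribosomal proteins, with 22 of 26 members higher, had a median of 0.10, with Rpl8 at 0.18 and Rps3 at 0.11, the latter at -0.004 with quantile normalization.

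The Hoxa9 and Meis1 program was evenly divided, with 5 members higher and 5 lower of 10 tested, and a median log2 difference near 0. Its members Hoxa5, Hoxa6, Hoxa7 and Hoxa10 had 0 to 6 reads per library and were not tested. Lmo2, a bridging factor of stem cell transcription complexes, had 3746, 3524 and 3732 counts against 2783 to 3312 (median 2934; -0.28, adjusted p = 0.121, limma), without overlap, and Cdk6 differed by 0.20. Only 5 of 18 long-term stem cell genes were tested, and Cdkn1c, an inhibitor of cyclin-dependent kinases, had 173, 94.9 and 39.7 counts against 44.5 to 718 (1.39, adjusted p = 0.331). Of 24 polycomb genes 14 were higher (median 0.09), with the histone-binding subunits Rbbp4 (3169, 3547 and 3655 counts against 4161 to 4793, 0.35, adjusted p = 0.0791) and Rbbp7 (1925, 2080 and 2215 against 2451 to 2984, 0.44, adjusted p = 0.0791) above the pre-malignant range in all leukemic libraries. Both passed the adjusted p-value without DN3, at 0.0342 and 0.0249.

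Many shared lower genes had few reads, and some markers of other cells were lower as well. Of the 139 shared lower genes 102 (73.4%) had a mean normalized count under 50 and 39.6% were predicted genes or pseudogenes, against 26% and 22.5% of all genes tested. Of the 44 shared higher genes 22 had a mean under 50 and 20.5% were predicted. Requiring a mean of at least 50 left 22 higher and 37 lower shared genes, and including genes of any count gave 77 higher and 986 lower. Fewer genes detected and fewer olfactory receptor reads in leukemic libraries moved with these low-count genes, and their part was not tested. With the share of olfactory receptor reads in the model, none of the 4 called genes was called. Over all alternatives, this one included, log2 differences ran from 1.037 to 1.221 for Cd81 and from 2.03 to 2.774 for Mrap. Those of Igkv12-41 ran from -9.448 to -3.917.

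B cell markers were lower in 9 of 10 tested members (median log2 difference -1.75). Ebf1, a factor of B cell commitment, had 48.3, 27.9 and 15.7 counts against 1.84 to 10.3 (median 3.61; -2.45, adjusted p = 0.0872, limma), and Ms4a1, the gene for CD20, 28.4, 31.6 and 38.8 against 2.75 to 13.7 (median 7.23; -2.17, adjusted p = 0.0903). Cd79a, a signaling chain of the B cell receptor, differed by -1.51, and all 3 genes were lower in each leukemic library, Cd79a by the narrowest margin, with 13.96 counts in PM2 and 13.95 in DN2. The summed B cell markers were below the pre-malignant range in 6 of 6 leukemic libraries (exact permutation test, p = 0.0238, adjusted p = 0.143 over 12 measures). Alas2, an enzyme of heme synthesis in erythroid cells, was the shared erythroid marker. Its counts were 149, 68.9 and 67.4 against 5.37 to 57.9 (median 12.2, log2 difference -2.5, adjusted p = 0.11, limma). Of 7 tested erythroid markers 6 were lower (median -2.11), but the median over members was 0.11 in ST2. Their summed levels overlapped, at 25.2 to 57.9 RPM in the pre-malignant and 3.98 to 33.9 in the leukemic libraries, with ST2 the highest leukemic one.

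The other marker lists, except that of mast cells, basophils and eosinophils, were near the detection limit or without a common direction. T and NK cell markers summed to between 3.38 and 4.66 RPM in the pre-malignant and between 1.44 and 3.66 in the leukemic libraries, with 1 of 12 tested. Platelet markers summed to 2.5 to 3.24 and 1.34 to 2.74 RPM, with Itga2b at a log2 difference of -0.54, and dendritic cell markers to 5.2 to 5.69 and 1.17 to 12.3. Endothelial and stromal markers summed to 17.5 to 25.3 and 9.34 to 39.2. Mast cell, basophil and eosinophil markers were higher in 4 of 5 tested members (median log2 difference 0.98). They summed to 26.1 to 39.9 RPM in the pre-malignant libraries. This range was exceeded in 5 of 6 leukemic libraries, at up to 96.6, while DN1 was below it at 15.7. Siglecf had a log2 difference of 0.98, Cpa3 of 1.46 and Mcpt8 of -0.50.

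**Figure D4:**
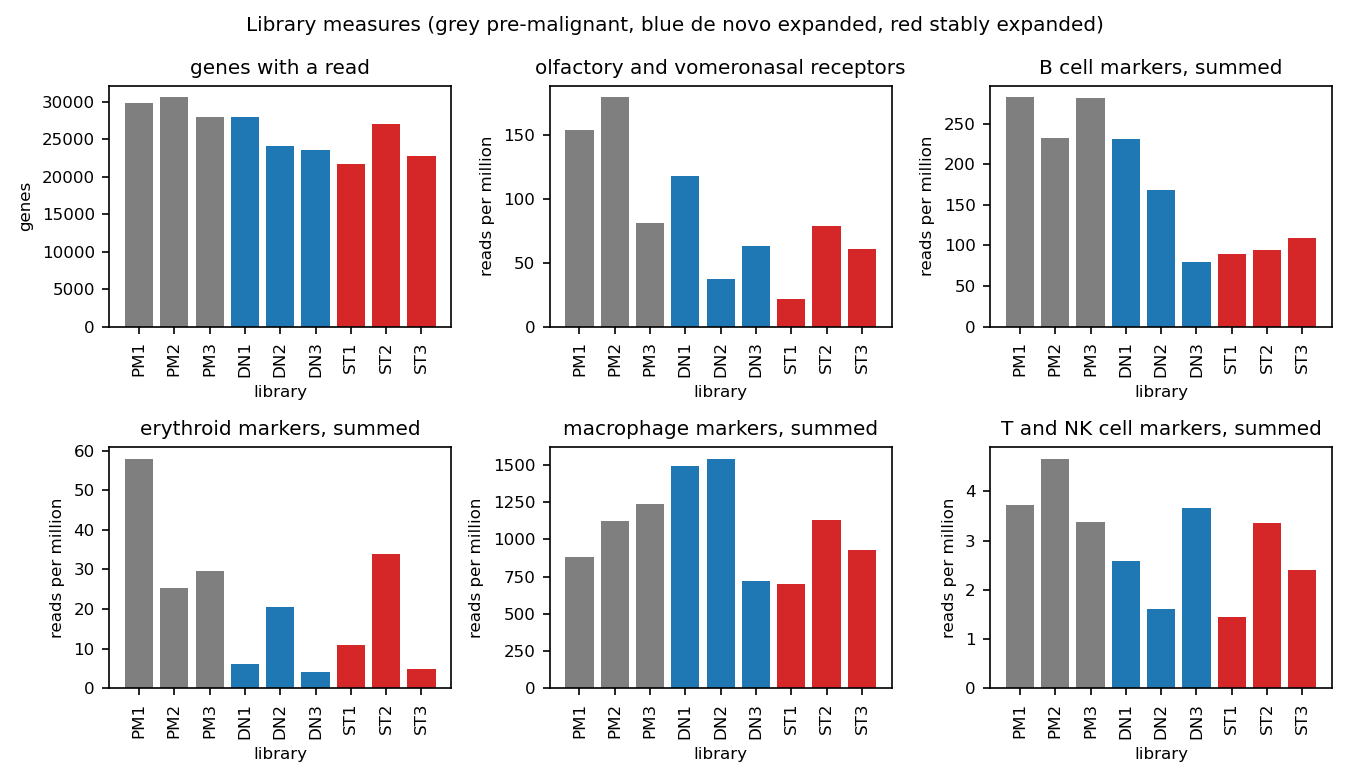
Bars give, per library, the number of genes with a read and, in RPM, the summed levels for olfactory and vomeronasal receptors and for 4 marker lists, from 0. Genes with a read, receptor reads and B cell markers are lower in most leukemic libraries, and macrophage markers are not.

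**Figure D5:**
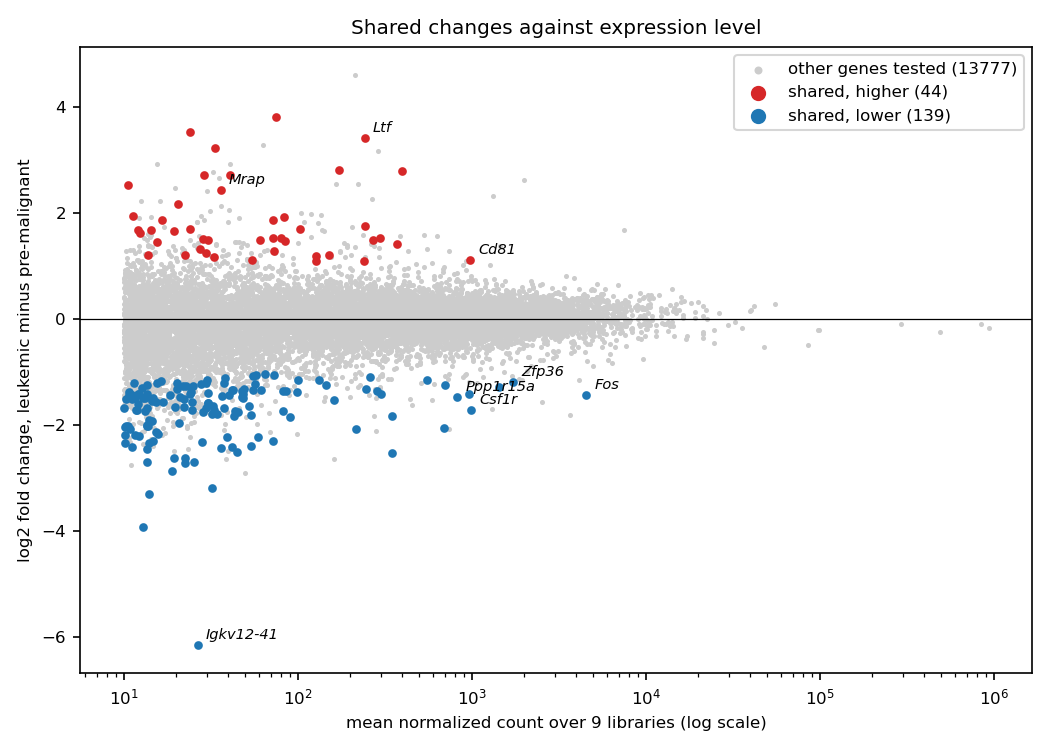
Log2 fold change of leukemic over pre-malignant libraries against the mean normalized count over 9 libraries (log axis) for 13960 genes, with the 44 shared higher genes in red and the 139 shared lower genes in blue. Most blue points lie at low counts, whereas Fos, Zfp36, Ppp1r15a and Csf1r lie among the well expressed genes.

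The size of the shared changes was compared between the leukemic groups in the same fit. Between stably and de novo expanded clones 2 genes were called (0.0143%), Fnbp1l and Gpx3, and none of the 183 shared genes was among them. At an unadjusted p-value under 0.05 this contrast held 1024 genes, edgeR called 0 and DESeq2 33, and without DN3 limma called 616. Among the shared genes, Pkd2 differed from the pre-malignant level by -1.19 in de novo and -4.22 in stably expanded clones and Ltf by 2.26 and 4.58, each with an adjusted p of 0.666 for the difference.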

How the data were processed

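RNA of 9 sorted splenocyte samples was sequenced after preparation with the SMARTer Stranded Total RNA pico kit. The authors ran nf-core/rnaseq (Trim Galore 0.6.4, STAR 2.6.1d, featureCounts 1.6.4) on GRCm38.p6 with GENCODE annotation, and DESeq2 in Galaxy. The deposited signal values are read counts per gene divided by a DESeq2 size factor, in 3 tables of 6 libraries each. The deposited log2 fold changes, their standard errors and Wald statistics (a score) and the deposited p-values are the authors' comparisons and were not used.

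Whole reads were recovered from the smallest step of each column, and at least 99.9832% of values came out whole within 0.05 reads. The 9 libraries, with 10379739 to 15551196 reads over 55401 genes, were scaled together by the median of ratios. Genes whose mean reached 10 normalized counts were tested with limma 3.58.1 (trended variance) on log2(normalized count + 1), with a mean for each of the 3 groups and the leukemic effect as the average of both leukemic groups minus the pre-malignant group. Fold changes are on this scale and understate the change of low genes. P-values were adjusted by Benjamini-Hochberg over all 13960 genes, and genes were called where the adjusted p was under 0.05 and the difference 2-fold or more. Library measures were compared with two-sided exact permutation tests (84 arrangements), which cover these libraries only. A limit of 3 reads was set for a count of 0, and covers counting error only. The fit was tested on simulated data.

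The gene lists and the comparison were chosen with earlier results of these data known. Genes were named where they were among the 12 shared genes leading in each direction, called or shared list members, sort and vector genes, or, for a list without such a member, up to 3 of its most abundant genes. The last kind was named only where the difference was at least its SE, a condition added after the values were seen. The genes under 2-fold, Fnbp1l and Gpx3, and Cd79a beside its closest libraries were also named after their values were seen. Predicted genes were counted and not named, and some genes counted here are not reported by name. Promoter windows came from a RefSeq table of GRCm38.p6, and motifs were read on both strands. Alternatives covered the pseudocount, the filter, scaling, the model, edgeR 4.0.16 and DESeq2 1.42.0 on the recovered reads, and leaving out each library. Columns carry a library number that names no clone or mouse.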

Additional observations from a re-analysis of the deposited data

Results flagged for a closer look

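Of 110 gene and library values checked over the 6 leukemic libraries, 4 had 1 library farther from the others than Dixon's 95% limit for 6 samples, and chance gives about 1 in 20. Cx3cr1 had a normalized count of 7.22 in DN3, against 38.56 to 87.75 in the other leukemic libraries. Rps3 had 8347 in ST3, against 10672.68 to 11341.5. B2m had 8789 in ST1, against 6829.25 to 7432.62. Rbbp7 had 2451 in ST1, against 2785.09 to 2984.19.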

How the results depend on the processing

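The 4 called genes were called again under both other pseudocounts, without a filter on low values, with TMM, total-read and quantile scaling, with 2 group means, array weights, edgeR and DESeq2. The number of called genes was 9 with a pseudocount of 5, 13 without a filter, 2 at a mean count of at least 50, 11 with quantile normalization, 8 with 2 group means, 175 with array weights, 186 with DESeq2, 2 with the olfactory receptor share as a covariate, 14 without the fold limit, 0 in the de novo and 384 in the stably expanded libraries alone, and 0 (without PM3) to 106 (without DN3) with 1 library left out. The 183 shared genes became 1063 without a filter (77 higher, 986 lower), 59 at a mean count of at least 50, 405 with de novo and 868 with stably expanded libraries alone, and 187 (without DN3) to 320 (without PM3) with 1 library left out. Called genes between the leukemic groups, 2 in the report, numbered 0 with a pseudocount of 0.1, a mean count of at least 50, quantile normalization, edgeR, the covariate or a test against 1.2-fold, 370 with array weights, 33 with DESeq2, and 0 to 616 with 1 library left out, the highest without DN3. The causes were not tested.

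Among named genes, directions turned for Ptprc (log2 difference -0.027 with quantile normalization, -0.035 with the covariate, -0.025 to 0.078 with 1 library left out), Rps3 (-0.004 with quantile normalization) and Itgam (-0.067 with the covariate, -0.177 in de novo libraries alone). List medians turned for MAPK genes (0.069 by edgeR, 0.079 by DESeq2), heat shock chaperones (up to 0.162, without DN2), p53 targets (0.011 without DN3), and the Hoxa9 and Meis1 program and stem cell, T and NK cell, dendritic and endothelial lists, whose values lie near 0 or rest on few genes. No scaling moved the median of all genes by over 0.1, while dropping the filter moved it to -0.178. No paired analysis was possible because the columns carry no replicate number that links a library of one group to one of another. The 3 pre-malignant libraries limit the precision of every comparison.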
